A study of Brachypodium distachyon with 12 samples.

Results

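Vascular bundles (VBs) of type 2, the bundles in which the first protoxylem cells can be seen, were compared with parenchyma from the center of the stem, both captured from shoot apices. The members are 6 of the 12 RNA-seq libraries of the experiment, chosen by their labels alone, 3 of VB type 2 and 3 of parenchyma. VB type 2 held 1 to 2 visible protoxylem cells per bundle. All plants were wild-type *Brachypodium distachyon* Bd21-3, a small temperate grass, with no treatment and an age of 19 days in the labels. The other 6 libraries, 3 of VB type 1 without visible protoxylem and 3 of VB type 3 with more of it, serve to set VB type 2 beside other bundles and enter the scaling of levels. Tissue was cut out of sections by laser capture microdissection and amplified from an input of 500 pg of RNA, and each replicate was gathered from several captured pieces of a few plants. A captured bundle holds procambium, young xylem, young phloem and the cells around them, so that a library is a mixture. In such bulk samples, fewer cells of a type and less RNA per cell cannot be told apart.

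In a young bundle, the procambium is the stem-cell-like tissue that gives xylem toward one side and phloem toward the other. Auxin, carried by PIN proteins, marks the strands, and Dof transcription factors such as TMO6 are known from Arabidopsis to act in procambium. Protoxylem cells are the first water-conducting cells. They lay down patterned secondary walls of cellulose, xylan and lignin and then digest their contents with proteases such as XCP1. Stem parenchyma cells are large and vacuolate, and in a young stem they can carry chloroplasts and starch.

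Between 16907265 and 21752051 read pairs were counted on transcripts in the VB type 2 libraries, and between 12888132 and 27218311 in the parenchyma libraries. A single transcript without a description, Bradi2g12067.1, accounted for 31.5 to 41.9% of the VB type 2 pairs. In parenchyma replicates 1, 2 and 3 its share was 15.1%, 21.0% and 86.3%. Parenchyma replicate 3 thus held only 1768043 pairs on all other transcripts, where 15560 transcripts had any pair, while the other 11 libraries had 19256 to 22463. A count of 3 pairs, taken as the limit of detection, was worth 1.37 CPM there and 0.0719 to 0.166 CPM elsewhere. The comparison was therefore fitted with and without parenchyma replicate 3. Levels are normalized CPM, which are pair counts scaled to library totals with TMM factors over all 12 libraries. The PCR-amplified pairs carry no molecular identifiers, so that intervals and limits cover counting error only.

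With all 6 libraries, 16733 transcripts were tested and 20 were called differentially expressed (0.12%) by edgeR's quasi-likelihood test at a Benjamini-Hochberg adjusted p under 0.05. They comprised 5 that were higher in the bundles (0.0299%) and 15 that were lower (0.0896%). The higher group consisted of a fasciclin-like arabinogalactan protein, a member of an uncharacterised membrane protein family, a pair of small heat shock proteins and a glutathione S-transferase. The lower group was made mostly of lipid-transfer family proteins, plastid proteins, a vacuolar water channel, a starch synthesis enzyme and an amino acid transporter. In each of the 20 transcripts, no VB type 2 library overlapped a parenchyma library. The 20 were chosen by a test on these same libraries, so that this separation is not further evidence. Over all tested transcripts, the VB type 2 libraries were all above parenchyma in 8.46% and all below in 9.37%. Without parenchyma replicate 3, 18499 transcripts were tested and 34 were called (0.184%), 10 higher (0.0541%) and 24 lower (0.13%). Both fits shared 13 calls, and the sign was the same in 13 of 13.

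The number of calls changed when single libraries were left out. In the fit of 6, leaving out VB type 2 replicate 2, parenchyma replicate 1 or parenchyma replicate 2 gave 0 calls in the quasi-likelihood test, with 1356, 1860 and 1691 transcripts at an unadjusted p under 0.05. Leaving out VB type 2 replicate 3 gave 1 call and leaving out VB type 2 replicate 1 gave 20, of which 10 were shared with the fit of 6. In the fit without parenchyma replicate 3, further leaving out VB type 2 replicate 2 or either parenchyma library gave 0 calls, leaving out VB type 2 replicate 3 gave 1, and leaving out VB type 2 replicate 1 gave 36. The study's methods name the likelihood ratio test of edgeR, which called 556 transcripts in the 6 libraries (3.32%), 211 higher (1.26%) and 345 lower (2.06%), and included all 20. Leaving out parenchyma replicate 3, it called 793 (4.29%), 290 higher (1.57%) and 503 lower (2.72%). Scaling to library totals in place of TMM called 37 transcripts, of which 27 were higher and 10 lower. With library totals the median log2 fold change over tested transcripts was 0.32, against 0.01 with TMM.

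Bradi3g56390.1 has the Arabidopsis gene FLA2 as its best hit. Fasciclin-like arabinogalactan proteins are glycoproteins of the cell surface and wall. It had 23.5, 19.2 and 23.9 CPM in VB type 2 replicates 1, 2 and 3, against no pair in any parenchyma library. The 3 bundle libraries lay close together, and the gene was at least 43.1-fold higher with all 6 libraries and at least 258-fold higher without parenchyma replicate 3, set against the limit of 3 pairs per library averaged over the parenchyma libraries. The adjusted p of the quasi-likelihood test was 0.0456 and 0.0417. Bradi4g06396.1 belongs to the UPF0497 family, membrane proteins related to those that build the Casparian strip in Arabidopsis. It had 17, 72.5 and 88.8 CPM in VB type 2, against 0.168, 0.167 and 0.457 CPM in parenchyma. Replicate 1 was the lowest of the bundle libraries and yet far above every parenchyma library. The transcript was called in both fits (adjusted p = 0.0326 with and 0.0419 without parenchyma replicate 3, quasi-likelihood test).

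Both small heat shock transcripts have HSP21 as their best hit, a chaperone of the Arabidopsis chloroplast. Bradi3g20840.1 had 22.7, 35.5 and 58.9 CPM in VB type 2 and 0.647, 0.666 and 0.915 CPM in parenchyma, a log2 fold change of 5.80 ± 0.73 (SE, n = 3 per group, adjusted p = 0.0326, edgeR's quasi-likelihood test). When parenchyma replicate 3 was left out its log2 fold change was 5.90 ± 0.75 (adjusted p = 0.0459, same test). Bradi3g20830.1 had 19.2, 89.8 and 148 CPM in VB type 2 and 1.13, 1.27 and 1.83 CPM in parenchyma. Its adjusted p in the quasi-likelihood test was 0.0456 with parenchyma replicate 3 and 0.0828 without it. Pairs that matched both copies were not counted, so that the split between them is uncertain. Bradi1g76080.1, with the stress-inducible glutathione S-transferase GSTF8 as best hit, had 35.2, 173 and 198 CPM in VB type 2 and 3.57, 5.0 and 3.20 CPM in parenchyma. Its log2 fold change was 5.10 ± 0.72 (SE, adjusted p = 0.0456, quasi-likelihood test), and without parenchyma replicate 3 the call was lost (adjusted p = 0.0929). In 4 of these 5 transcripts VB type 2 replicate 1 was the lowest bundle library.

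**Figure D1:**
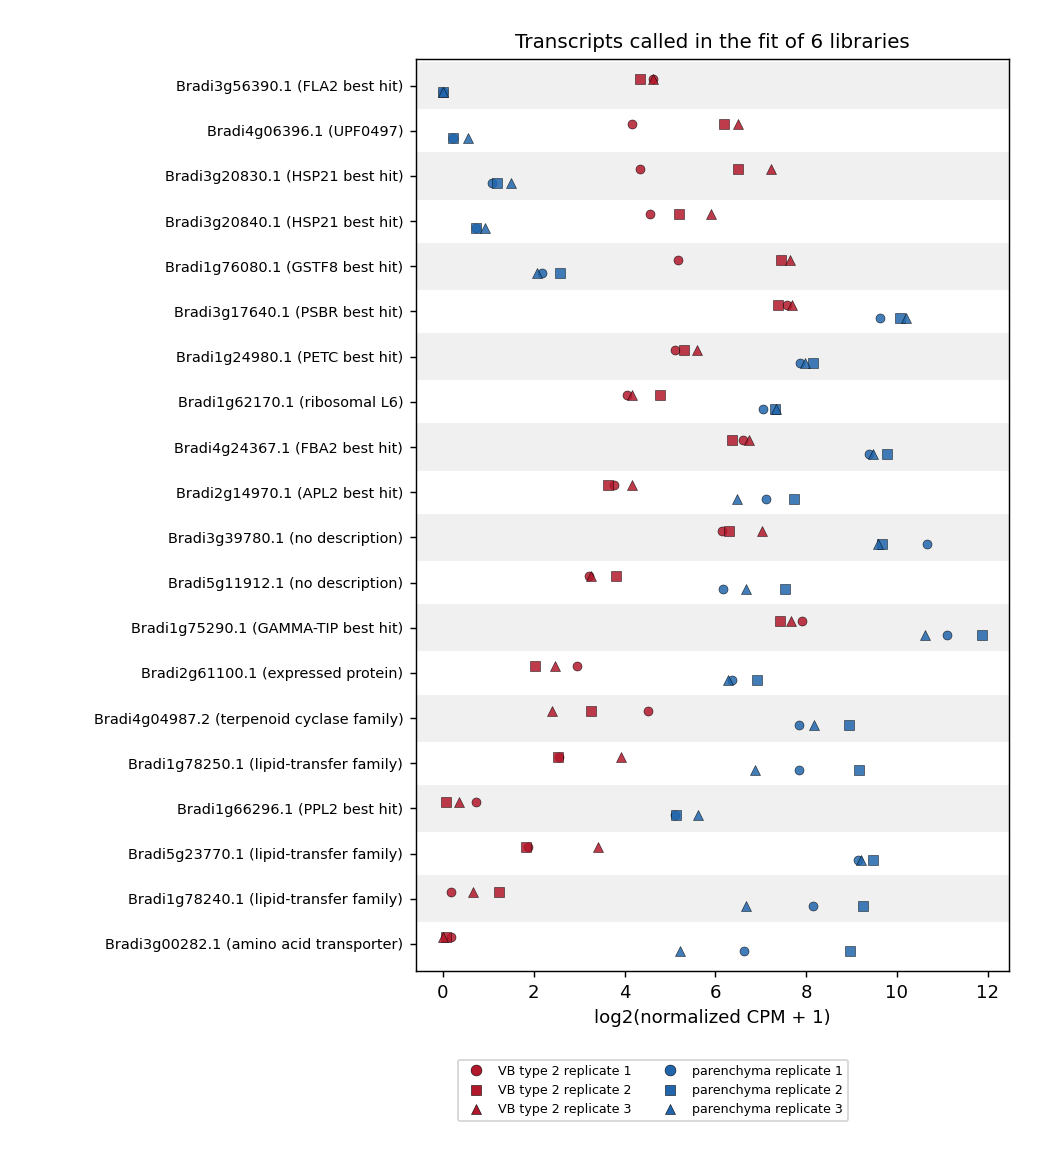
Level of the 20 called transcripts in each library, as log2(normalized CPM + 1), with VB type 2 in red and parenchyma in blue, and circles, squares and triangles for replicates 1, 2 and 3. Rows run from the highest to the lowest log2 fold change, and in 20 of 20 rows the red and blue points do not overlap.

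Several of the lower transcripts encode secreted proteins or transporters. Bradi5g23770.1, of the lipid-transfer protein family of small secreted proteins, had the smallest adjusted p of the comparison. It had 2.66, 2.57 and 9.69 CPM in VB type 2 and 564, 713 and 592 CPM in parenchyma. Its adjusted p was 0.0289 with and 0.0310 without parenchyma replicate 3 (quasi-likelihood test), and the log2 fold change was -6.96 and -6.98. Bradi1g78240.1 and Bradi1g78250.1, of the same family, were also called in both fits. Bradi1g78240.1 had 0.123, 1.36 and 0.586 CPM in VB type 2 and 283, 613 and 101 CPM in parenchyma. Bradi1g78250.1 had 4.87, 4.75 and 14.1 CPM in VB type 2 and 229, 572 and 116 CPM in parenchyma (log2 fold change -5.26 ± 0.76, SE, adjusted p = 0.0474, quasi-likelihood test). Bradi3g00282.1, of a family of amino acid transporters, was nearly absent from the bundles, with 3, 1 and 0 pairs in VB type 2 and 4079, 14921 and 79 pairs in parenchyma. The pooled parenchyma level was 4558 times that of VB type 2 (95% exact binomial interval 1780 to 16731, counting error only).

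Bradi1g75290.1 has GAMMA-TIP, a water channel of the vacuolar membrane, as its best hit and was the most abundant of the lower transcripts. It had 238, 170 and 202 CPM in VB type 2, against 2190, 3744 and 1570 CPM in parenchyma, a log2 fold change of -3.61 ± 0.45 (SE, adjusted p = 0.0326, quasi-likelihood test). Leaving out parenchyma replicate 3 gave -3.85 ± 0.37 (adjusted p = 0.0252, quasi-likelihood test). Bradi4g04987.2, of the terpenoid cyclase family, had 22.1, 8.53 and 4.26 CPM in VB type 2 and 227, 492 and 287 CPM in parenchyma. It was called with all 6 libraries (adjusted p = 0.0457) and not without parenchyma replicate 3 (adjusted p = 0.0735, both quasi-likelihood).

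Of the 15 lower transcripts, 6 have best hits that are plastid proteins of carbon fixation, starch synthesis, electron transfer or translation. Bradi4g24367.1 (FBA2, a plastid fructose-bisphosphate aldolase) had 96.4, 82.1 and 106 CPM in VB type 2 and 668, 880 and 707 CPM in parenchyma, a log2 fold change of -2.97 ± 0.36 (SE, adjusted p = 0.0326, quasi-likelihood test). Bradi2g14970.1 (APL2, a large subunit of ADP-glucose pyrophosphorylase, which makes the glucose donor for starch) had 12.5, 11.5 and 16.9 CPM in VB type 2 and 137, 212 and 88.7 CPM in parenchyma. Both were called with and without parenchyma replicate 3. Bradi1g24980.1 (PETC, the Rieske iron-sulfur protein of the cytochrome complex) had 33.5, 38.6 and 47.3 CPM in VB type 2 and 233, 285 and 252 CPM in parenchyma, and was called in both fits too (adjusted p = 0.0456 and 0.0496, quasi-likelihood test). Bradi3g17640.1 (PSBR, a subunit of photosystem II) had 189, 164 and 204 CPM in VB type 2 and 786, 1078 and 1184 CPM in parenchyma. Bradi1g62170.1, a plastid ribosomal protein of the L6 family, had 15.6, 26.7 and 17 CPM in VB type 2 and 132, 159 and 160 CPM in parenchyma. Bradi1g66296.1 (PPL2, a PsbP-like protein) had 0.655, 0.0485 and 0.273 CPM in VB type 2 and 33.8, 33.9 and 48.5 CPM in parenchyma. The calls of PSBR, the L6 protein and PPL2 were lost without parenchyma replicate 3 (adjusted p = 0.0608, 0.0631 and 0.0828, quasi-likelihood test). For each of them that library held the highest parenchyma level.

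Among the lower calls, 2 had no description and 1 was described only as an expressed protein. Bradi3g39780.1 had 69.7, 78.2 and 130 CPM in VB type 2 and 1624, 811 and 763 CPM in parenchyma. Bradi5g11912.1 had 8.31, 13.0 and 8.52 CPM in VB type 2 and 71.2, 184 and 102 CPM in parenchyma, and was not called without parenchyma replicate 3 (adjusted p = 0.0625, quasi-likelihood test). Bradi2g61100.1, the expressed protein, had 6.79, 3.10 and 4.57 CPM in VB type 2 and 81.6, 120 and 76.4 CPM in parenchyma. In total, 7 calls were lost without parenchyma replicate 3, with adjusted p from 0.0608 to 0.0929.

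Leaving out parenchyma replicate 3 added 21 calls, 7 higher and 14 lower in VB type 2. With that library in the fit, 19 of these were tested, with adjusted p from 0.0524 to 0.608 in the quasi-likelihood test, and 18 were called by the likelihood ratio test. The transcript that moved most was Bradi1g11240.1, whose best hit is plantacyanin, a small copper protein of the cell wall. It had 28.8, 30.1 and 33.4 CPM in VB type 2, against 1, 1 and 23 pairs in parenchyma replicates 1, 2 and 3, which is 0.0240, 0.0333 and 10.5 CPM. Without parenchyma replicate 3, the pooled level in VB type 2 was 1106 times that of parenchyma (95% exact binomial interval 306 to 9142) and the adjusted p was 0.0252 in the quasi-likelihood test. With that library the adjusted p was 0.608. The cell wall and stress genes were joined by Bradi3g37920.1 (HVA22E, of a membrane protein family known as stress-inducible from barley), with 19.6, 55.2 and 38.3 CPM in VB type 2 and 1, 0 and 2 pairs in parenchyma. Bradi4g31360.1, a serine protease of the subtilase family, had 29.7, 52.2 and 32.8 CPM in VB type 2 and 0.287, 0.433 and 4.57 CPM in parenchyma.

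On the lower side, Bradi4g20117.1, an O-methyltransferase family protein, had 11.7, 26.6 and 14.3 CPM in VB type 2 and 1517, 920 and 120 CPM in parenchyma (log2 fold change without parenchyma replicate 3 of -6.11 ± 0.51, SE, adjusted p = 0.0252, quasi-likelihood test). Bradi3g58920.1, of a family of lipase- and lipoxygenase-like proteins, had 17.2, 26.2 and 19.5 CPM in VB type 2 and 361, 461 and 76.8 CPM in parenchyma. In both, the third parenchyma library was several times below the others and still above every bundle library. The starch gene Bradi3g22330.1 (ADG1 as best hit, a subunit of ADP-glucose pyrophosphorylase) and the aquaporin Bradi1g28760.1 (PIP2A, a water channel of the plasma membrane) were called too. Bradi3g22330.1 had 30.5, 37.6 and 49.8 CPM in VB type 2 and 314, 323 and 166 CPM in parenchyma. Bradi1g28760.1 had 124, 240 and 168 CPM in VB type 2 and 1230, 2269 and 585 CPM in parenchyma. Further calls of this fit, picked after their values were seen, were BAM1 (Bradi4g21830.1, a receptor kinase that perceives CLE peptides in Arabidopsis) and GSL11 (Bradi2g40441.1, of the callose synthase family), which were higher, and PORA (Bradi3g57380.1, of chlorophyll synthesis) and BOR4 (Bradi2g34110.1, a borate exporter), which were lower. BAM1 had 49.7, 69 and 105 CPM in VB type 2 and 3.11, 4.33 and 16.5 CPM in parenchyma.

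Of the genes that the study names for the vasculature, for hormones and for the ERECTA pathway, 21 with full identifiers were taken, 14 of them shown for this experiment. Of these, 16 were tested and 0 were called in the quasi-likelihood test with or without parenchyma replicate 3, while the likelihood ratio test called 4 with all 6 libraries (3.32% over all). VB type 2 lay wholly above parenchyma in 6 (8.46% over all) and wholly below in 2 (9.37% over all), and the groups overlapped in 8. The study reports several of these genes, XCP1 and TMO6 among them, as higher in bundles in these same libraries. These counts are therefore not independent evidence. XCP1 (Bradi2g39320.2), the xylem cysteine peptidase, had 148, 856 and 989 CPM in VB type 2 and 1.29, 18.0 and 11 CPM in parenchyma. The lowest bundle library was thus far above the highest parenchyma library, but the bundle libraries spread widely. Its log2 fold change was 6.06 ± 1.07 (SE, adjusted p = 0.0580, quasi-likelihood test) with and 6.13 ± 1.38 (adjusted p = 0.154) without parenchyma replicate 3. The SWEET7 ortholog Bradi3g10270.1, of a family of sugar exporters, had 22.3, 127 and 88.4 CPM in VB type 2 and 5.17, 0.800 and 5.03 CPM in parenchyma (adjusted p = 0.0798 with and 0.165 without parenchyma replicate 3, quasi-likelihood test).

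The TMO6 ortholog (Bradi1g26570.1) had 16.0, 28.0 and 44.9 CPM in VB type 2, against the very even 3.11, 3.27 and 3.20 CPM in parenchyma (adjusted p = 0.0920 with and 0.147 without parenchyma replicate 3, quasi-likelihood test). The auxin carrier SoPIN (Bradi4g26300.2) had 36.6, 17.6 and 34.8 CPM in VB type 2 and 8.24, 0.133 and 0.915 CPM in parenchyma (adjusted p = 0.378 and 0.511 in these fits). PIN1a (Bradi1g45020.1) had 97.6, 79.8 and 50.3 CPM in VB type 2 and 34.8, 10.5 and 3.20 CPM in parenchyma, and PIN1b (Bradi3g59520.1) overlapped between the groups. The adjusted p of PIN1a was 0.30 with and 0.346 without parenchyma replicate 3. For both carriers parenchyma replicate 1 was the highest of its group. PXY (Bradi3g17567.1), a receptor kinase of the cambium in Arabidopsis, had 18.9, 8.29 and 11.4 CPM in VB type 2 and 5.03, 2.83 and 0.915 CPM in parenchyma (adjusted p = 0.536 with and 0.552 without parenchyma replicate 3, quasi-likelihood test).

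BdERECTA (Bradi1g46450.1), the receptor kinase at the center of the study, had 317, 172 and 99.8 CPM in VB type 2 and 188, 237 and 207 CPM in parenchyma. The bundle values lay on both sides of the parenchyma values, with a log2 fold change of -0.09 that turned to 0.30 with library totals (adjusted p = 0.981 with TMM, quasi-likelihood test). When parenchyma replicate 3 was left out it was -0.10 (adjusted p = 0.983, quasi-likelihood test). Its paralog BdERECTA-like 1 (Bradi1g49950.1) had 56.9, 63 and 21.2 CPM in VB type 2 and 43.9, 39.7 and 22 CPM in parenchyma. EPFL peptides are known as ligands of ERECTA receptors in Arabidopsis. EPFL1 (Bradi3g38740.1) had 5.11, 8.43 and 6.41 CPM in VB type 2 and 12.4, 21.2 and 81.4 CPM in parenchyma. The groups did not overlap, but the parenchyma mean rested on replicate 3. The adjusted p was 0.238 with that library and 0.588 without it. EPFL4 (Bradi1g74380.1) had 35.4, 51.4 and 37.7 CPM in VB type 2 and 22.2, 36.4 and 72.7 CPM in parenchyma. EPFL2, EPFL6 and EPFL9 overlapped between the groups too, and EPFL3 was too low to be tested. ACC oxidase (Bradi4g31820.1), the last enzyme of ethylene synthesis, had 29.6, 16.1 and 3.63 CPM in VB type 2 and 116, 187 and 38.9 CPM in parenchyma (adjusted p = 0.201 with and 0.177 without parenchyma replicate 3, quasi-likelihood test). The TED7 ortholog, a marker of xylem elements, had no pair in VB type 2 and 1 in parenchyma, and the SWEET11 ortholog had none in either group.

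**Figure D2:**
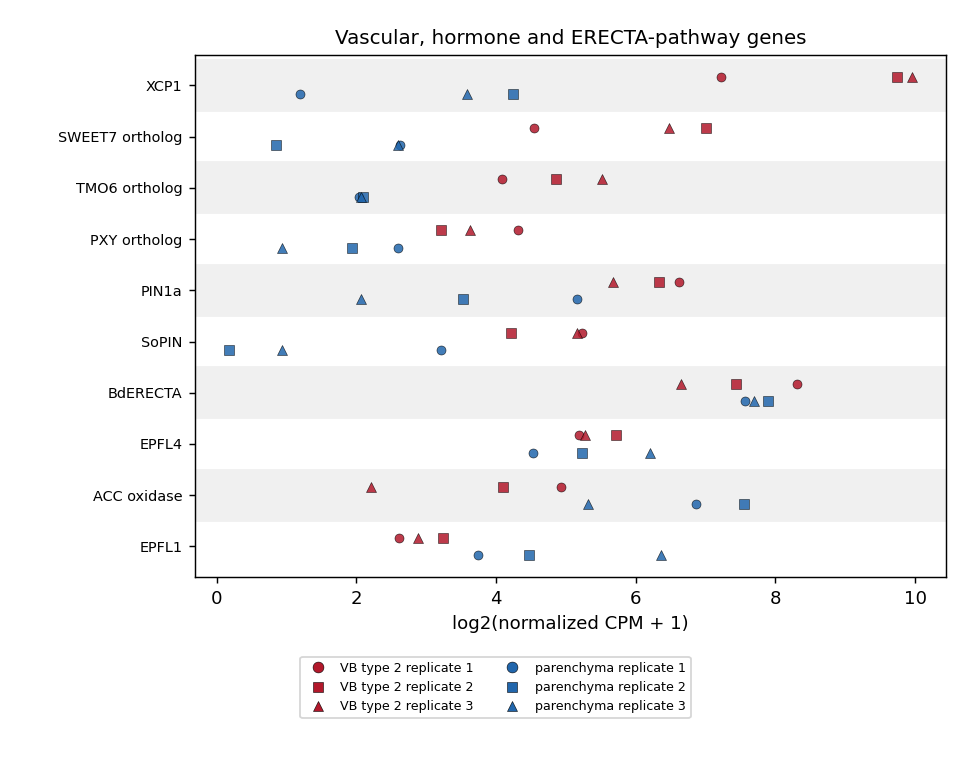
Level of 10 genes named by the study in each library, as log2(normalized CPM + 1), with VB type 2 in red above parenchyma in blue, and circles, squares and triangles for replicates 1, 2 and 3. XCP1 shows the widest gap and an outlying VB type 2 replicate 1 at 148 CPM, and BdERECTA and EPFL4 overlap between the groups.

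Gene groups were then described with 24 lists built from the words of the study's annotations, which cover 5.93% of the transcripts. Much of the annotation comes from a table of the study that compares the VB types with these same parenchyma libraries and was read here only in its leading part, ordered by the VB type 1 comparison, so that a list's direction is not independent evidence. Lists can share members. Members named as examples were picked after their values were seen, and for those not called with all 6 libraries the adjusted p is that of the 6 unless the other fit is named. Over all tested transcripts the median log2 fold change was 0.01 with all 6 libraries and 0.03 without parenchyma replicate 3. The likelihood ratio test called 3.32% of tested transcripts with all 6 libraries and 4.29% without parenchyma replicate 3.

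In the photosynthesis list, all 32 members tested had a log2 fold change below 0, against 49.5% of all tested transcripts, with values from -3.14 to -1.43 and a median of -2.03. VB type 2 lay wholly below parenchyma in 26 members (9.37% over all). Only PSBR passed the quasi-likelihood test, while the likelihood ratio test called 22. Without parenchyma replicate 3 the median was -1.83, with 0 calls in the quasi-likelihood test and 16 in the likelihood ratio test, and all 32 were again below 0 (48.8% over all). Of the 34 members, 31 were described only in that table. Their summed level was 4800, 3719 and 4415 CPM in VB type 2 and 9300, 22514 and 21881 CPM in parenchyma. Parenchyma replicate 1 was well below the other parenchyma libraries and still above every bundle library. A chlorophyll a/b-binding family protein (Bradi2g56260.1) had 28.7, 41.5 and 39.8 CPM in VB type 2 and 217, 176 and 212 CPM in parenchyma (adjusted p = 0.0524, quasi-likelihood test).

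The ribosomal list, which holds plastid as well as other ribosomal proteins, had 12 of 12 tested members below 0 with a median of -2.27, and 1 member called lower, the L6 protein above. In the fit of 5 libraries, which leaves out parenchyma replicate 3, all 12 were again below 0 (median -2.08). There the quasi-likelihood test called 0 and the likelihood ratio test 9 (4.29% over all). Of the 14 ribosomal members, 10 were described only in the table that compares the VB types with parenchyma. The list's sum was 255, 281.6 and 197 CPM in VB type 2 and 1012, 1206 and 1615 CPM in parenchyma. Of 11 starch and sucrose genes tested, 9 were below 0 in each fit (median -2.28 with and -2.14 without parenchyma replicate 3). APL2 was called with all 6 libraries, and APL2 and ADG1 without parenchyma replicate 3. The 4 tested members described in other tables had medians of -1.66 with and -0.95 without parenchyma replicate 3. A second transcript with ADG1 as best hit (Bradi4g27570.2) had 37.3, 32.8 and 31.5 CPM in VB type 2 and 144, 201 and 223 CPM in parenchyma (adjusted p = 0.0524). Against this trend, sucrose synthase SUS6 (Bradi1g29570.2), an enzyme that splits sucrose, had 6.10, 29.0 and 3.28 CPM in VB type 2 and 0, 2 and 0 pairs in parenchyma (adjusted p = 0.0974, quasi-likelihood test).

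All 7 aquaporins tested were below 0, with a median of -2.93 and 1 call (GAMMA-TIP), and 2 calls without parenchyma replicate 3 (median -3.29). The 3 tested members described in other tables had medians of -0.78 with and -0.72 without parenchyma replicate 3. Together the aquaporins had 574, 633 and 640 CPM in VB type 2 and 4104, 7858 and 2955 CPM in parenchyma. The vacuolar channel transcript Bradi2g62520.1 had 1.88, 2.81 and 8.59 CPM in VB type 2 and 36.2, 213 and 112 CPM in parenchyma (adjusted p = 0.0585, quasi-likelihood test). Of 13 amino acid, nitrate and peptide transporters tested, 10 were below 0 and 1 was called lower (median -2.35). In the fit of 5 libraries 10 of 16 were below 0 and 1 was called lower (median -2.09). Members also described in other tables had a median of -0.40 with 6 and of 0.88 with 5 libraries. Bradi2g43062.1, a bidirectional amino acid transporter, had 29.1, 39.7 and 13.9 CPM in VB type 2 and 203, 245 and 450 CPM in parenchyma. It was not among the members described in other tables.

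The lipid-transfer list split in 2 directions. Of 15 members tested, 8 were below 0 and wholly below parenchyma (9.37% over all), with 3 calls, and 5 calls without parenchyma replicate 3. The other 7 were above 0 with 0 calls by the quasi-likelihood test and 4 by the likelihood ratio test, of which the count was 1 without parenchyma replicate 3. The one member wholly above parenchyma, Bradi2g17550.1, had 2.70, 60.4 and 142 CPM in VB type 2 and 0.862, 2.07 and 0.915 CPM in parenchyma. The list's median of -2.88 became -0.62 without parenchyma replicate 3, where 1 further member was tested. Among the 7 tested members described in other tables the median was 3.18.

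On the side of the bundles, 8 of 8 tested members of the list of vascular and secondary wall transcription factors were above 0, with a median of 2.01. That list, matched by words, also holds SCARECROW-like and homeodomain family members whose descriptions name no vascular role. Its 2 tested members described in other tables had medians of 1.46 with and 0.98 without parenchyma replicate 3. In 6 of the 8, VB type 2 lay wholly above parenchyma (8.46% over all). The quasi-likelihood test called 0 and the likelihood ratio test 3. With parenchyma replicate 3 left out, 10 of 10 were above 0 (median 2.39), with 0 and 4 calls. Their sum was 257, 285 and 316 CPM in VB type 2 and 71.7, 64 and 75.5 CPM in parenchyma, so that both groups were even. The Dof factor OBP3 (Bradi2g37130.1) had 44.9, 25.4 and 36.0 CPM in VB type 2 and 4.48, 1.30 and 0.915 CPM in parenchyma (adjusted p = 0.0773, quasi-likelihood test). Another Dof transcript (Bradi3g51510.3) had 108, 112 and 104 CPM in VB type 2 and 11, 22 and 41.6 CPM in parenchyma. The stem cell factor of the cambium WOX4 (Bradi5g24080.1) had 2.46, 14.9 and 25.2 CPM in VB type 2 and 11.2, 7.76 and 1.37 CPM in parenchyma, and overlapped. All 4 cytokinin genes tested were above 0 and wholly above parenchyma (8.46% over all, median 3.38), with 0 calls in the quasi-likelihood test and 2 in the likelihood ratio test. Only 1 of the 4 was described in other tables, at 1.61. In the fit of 5 libraries, 5 were tested, 4 were above 0 and 1 below (median 2.12), and neither test called any. There the 2 described in other tables had a median of 0.60. A transcript with the cytokinin response regulator ARR9 as best hit (Bradi5g11350.1) had 19.3, 24.2 and 45.6 CPM in VB type 2 and 6.56, 7.26 and 3.66 CPM in parenchyma. Of 16 auxin genes tested, 9 were above 0 (median 0.83), with 0 calls, and without parenchyma replicate 3 these numbers were 12 of 19, 1.46 and 0. The 9 members described in other tables had a median of -0.10 with all 6 libraries. A B3 family auxin response factor (Bradi1g34340.1) had 43.3, 62.3 and 151 CPM in VB type 2 and 13.2, 16.5 and 17.4 CPM in parenchyma.

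Lists of wall building and xylem maturation went in both directions at the median. Medians were above 0 for 2 cellulose synthases (1.58 with and 1.59 without parenchyma replicate 3) and 5 proteases and nucleases (2.17 and 1.77). The same held for 3 lignin monomer genes (2.34 and 1.89) and 16 expansins and xyloglucan endotransglucosylases (1.5 and 1.69). The summed level of the expansin and xyloglucan list ran mostly the other way. It was 768, 720 and 1214 CPM in VB type 2 and 947, 2857 and 2602 CPM in parenchyma. Only 3 of its 16 tested members were described in other tables, with medians of 1.22 with and 0.85 without parenchyma replicate 3. The list built from words of xylan synthesis had 4 tested members (2.51 and 2.42), but they included the lignin enzyme cinnamoyl CoA reductase (Bradi3g36887.1) and a cellulose synthase family transcript (Bradi2g49912.1) that other lists also hold. Its one tested member described in other tables, Bradi1g16540.1, was at -1.79. Medians were below 0 for 13 pectin enzymes and inhibitors (-1.23, and -0.98 for 15 without parenchyma replicate 3), 7 laccases and peroxidases (-1.57, and -1.40 for 10), and the fasciclin-like proteins (-1.07 in both fits). Tested fasciclin-like members described in other tables had medians of 3.89 with and 3.51 without parenchyma replicate 3. For laccases and peroxidases these were -0.16 and 0.02, and for pectin enzymes and inhibitors -1.11 and -0.87. The quasi-likelihood test called 0 in each of these lists in either fit, except for FLA2. An aspartyl protease, Bradi1g50760.1, followed XCP1, with 14.9, 394 and 463 CPM in VB type 2 and 0.0479, 0.367 and 2.29 CPM in parenchyma (log2 fold change 9.36 ± 1.70, SE, adjusted p = 0.0624, quasi-likelihood test). Another, Bradi1g19070.1, was the reverse, with 3.44, 2.38 and 0.0391 CPM in VB type 2 and 32.6, 118 and 56.2 CPM in parenchyma. The cellulose synthase transcript Bradi1g02510.1 overlapped between the groups, with 104, 266 and 422 CPM in VB type 2 and 223, 404 and 210 CPM in parenchyma. The xyloglucan enzyme XTH25 (Bradi1g33840.1) had 210, 219 and 87.1 CPM in VB type 2 and 451, 1788 and 1997 CPM in parenchyma.

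Among 6 fasciclin-like proteins tested, FLA2 was the single call, a second (Bradi4g33040.1, FLA1 as best hit) had 28.0, 49.8 and 32 CPM in VB type 2 and 2.13, 4.37 and 0.457 CPM in parenchyma, and the other 4 were below 0. Of 26 heat shock proteins and chaperones tested, 2 were called, both HSP21, and the list's median was -0.10, which turned to 0.19 without parenchyma replicate 3 and to 0.44 with library totals. In the fit without that library 1 was called, Bradi3g20840.1. Of the 3 ABC transporters tested 0 were called by the quasi-likelihood test and 2 by the likelihood ratio test, and Bradi3g16130.1 had 4.83, 6.01 and 4.84 CPM in VB type 2, while parenchyma had no pair. The phloem and sugar transport list had 2 of 4 tested members above 0 (median 0.71) and 0 calls. Without parenchyma replicate 3 it had 3 of 5 (median 2.93) and 0 calls. The phloem protein of the list had a level of 0 CPM and was not tested, so that it has no fold change. The 12 gibberellin, brassinosteroid, abscisic acid and ethylene genes tested had a median of -1.10 with and -1.34 without parenchyma replicate 3, and 0 calls. The median of 9 vascular receptors and peptides was -0.06, turning to 0.18 without parenchyma replicate 3 and to 0.55 with library totals. The single tested members of the cell division list (2.25 with and 1.75 without parenchyma replicate 3) and of the cuticle and epidermis list (-0.97 and -0.92) were not called. Cuticle and epidermis genes summed to 1.75 to 5.44 CPM in VB type 2 and 4.73 to 10.4 CPM in parenchyma.

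**Figure D3:**
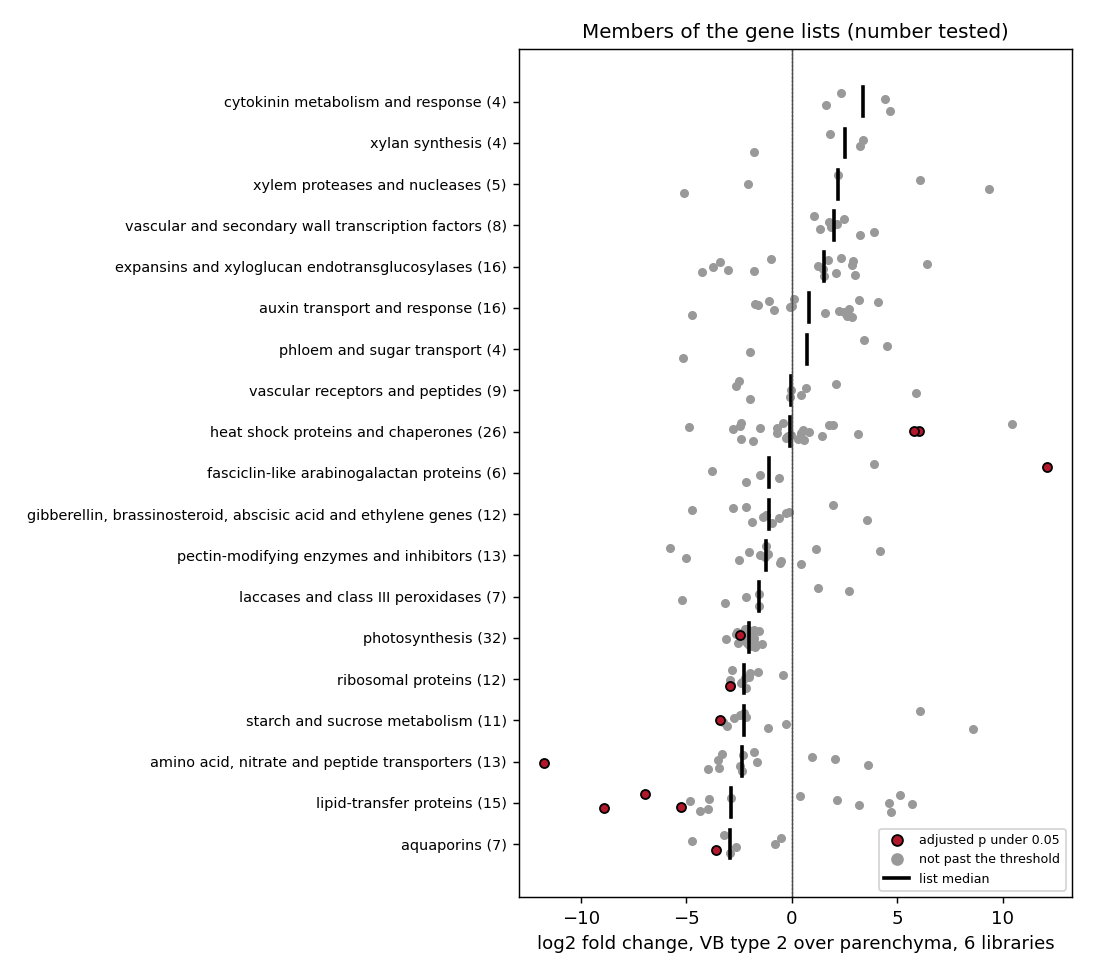
Log2 fold change of VB type 2 over parenchyma in the fit of 6 libraries for the tested members of each list with at least 4 of them. Points are transcripts, red where called, black bars are list medians and the vertical lines mark 0 and the median of all transcripts (0.01). All photosynthesis points lie between -3.14 and -1.43, and the lipid-transfer points fall on both sides of 0.

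The 3 bundle libraries were not alike. Across transcripts, log2 levels of VB type 2 replicates correlated by 0.66 to 0.79, those of parenchyma replicates by 0.69 to 0.81 and those of VB type 2 with parenchyma by 0.60 to 0.74. These values are descriptions over genes, which are not independent replicates. VB type 2 replicate 1 was the lowest of its group for some transcripts, among them XCP1 and others picked after their values were seen. PIN1a, SoPIN and PXY were instead highest in that library. In VB type 2 replicate 1, 22 transcripts had at most 3 pairs while both other VB type 2 libraries had at least 20 CPM. The same held for 0 transcripts in replicate 2 and 6 in replicate 3. Of these 22, 8 had at most 3 pairs in replicate 1 of both other VB types too. The cell wall invertase transcript Bradi5g09420.1, for an enzyme that splits sucrose outside the cell, had 0.0818, 147 and 184 CPM in VB type 2 replicates 1, 2 and 3. It had 0, 85.2 and 110 CPM in VB type 1 and 0, 41.0 and 84.3 CPM in VB type 3, against 0.0719, 1.87 and 4.12 CPM in parenchyma. The lipid-transfer transcript Bradi5g09610.1 had 0.286, 279 and 551 CPM in VB type 2, 0.0895, 262 and 344 CPM in VB type 1, 0.0546, 281 and 212 CPM in VB type 3, and 7.40, 6.33 and 11 CPM in parenchyma. An MtN3 family sugar transporter (Bradi3g41410.1) had 0.0409, 29.3 and 78.6 CPM in VB type 2. Replicate 1 was thus the low library in each bundle type for these transcripts. What replicate numbers share is not given in the sources used here.

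**Figure D4:**
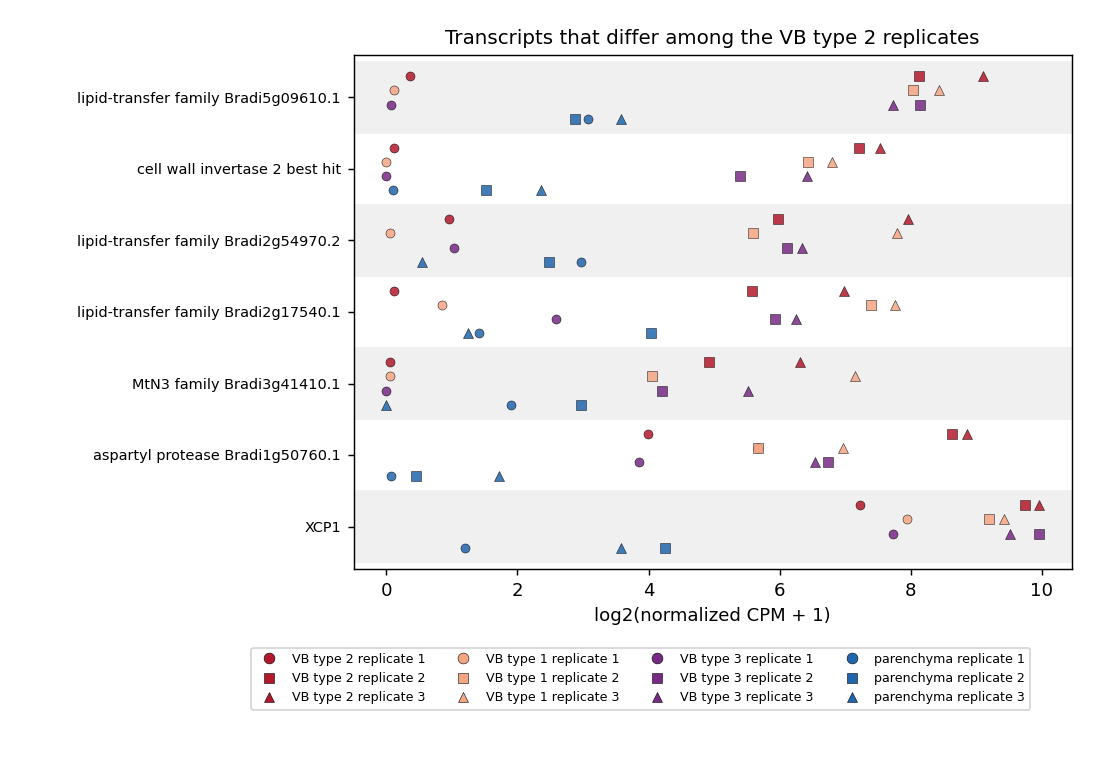
Level of 7 transcripts picked after their values were seen, as log2(normalized CPM + 1), in VB type 2 (red), VB type 1 (light orange), VB type 3 (purple) and parenchyma (blue), with circles, squares and triangles for replicates 1, 2 and 3. Replicate 1 of each bundle type lies below its replicates 2 and 3, down to 0.0409 CPM for the MtN3 family transcript in VB type 2, and comes close to replicate 2 for Bradi1g50760.1 in VB type 1.

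Last, VB type 2 was set against the mean of VB types 1 and 3 in the 9 bundle libraries, a comparison without parenchyma. Of 18770 transcripts tested, 0 (0%) were called by the quasi-likelihood test, 729 had an unadjusted p under 0.05 and the smallest adjusted p was 0.99993. The likelihood ratio test called 6 and DESeq2 60. The 20 transcripts called against parenchyma, which were chosen on these VB type 2 libraries, had log2 fold changes from -5.68 to 1.05 in this contrast. Of them, 14 were between -1 and 1 and 3 had an unadjusted p under 0.05. GAMMA-TIP (Bradi1g75290.1) had 238, 170 and 202 CPM in VB type 2, beside 130, 205 and 218 CPM in VB type 1 and 316, 320 and 136 CPM in VB type 3. FLA2 (Bradi3g56390.1) had 23.5, 19.2 and 23.9 CPM in VB type 2, beside 9.93, 23.0 and 18.5 CPM in VB type 1 and 11.4, 8.62 and 17.6 CPM in VB type 3. The transporter Bradi3g00282.1 was the lowest of them in the contrast (-5.68 ± 1.98, SE), with 3.67, 0.0422 and 2.01 CPM in VB type 1 and 0.437, 13.4 and 2.21 CPM in VB type 3. XCP1 (Bradi2g39320.2) had 148, 856 and 989 CPM in VB type 2, beside 245, 587 and 683 CPM in VB type 1 and 212, 994 and 727 CPM in VB type 3, so that VB type 2 overlapped the bundles without visible protoxylem in this xylem gene.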

How the data were processed

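RNA from 12 laser capture libraries was sequenced, and 6 of them, 3 of VB type 2 and 3 of parenchyma, were compared. After trimming and filtering out of rRNA, the authors mapped reads by Bowtie 2 onto 34310 transcripts, and the deposited values are unnormalized counts of pairs and of single reads. Both mates had to map unambiguously to 1 gene, so that near-identical copies can be undercounted. The labels call the libraries not stranded, so that overlapping genes on opposite strands may not be told apart. Transcript lengths in the deposited files were not used for levels.

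The condition of each library was taken from its title, and 0 value columns lacked one. For the main test, edgeR 4.0.16 in R 4.3.3 (glmQLFit and glmQLFTest) was run on pair counts with TMM normalization, a minimum of 1 CPM in 3 or more of 6 libraries (2 of 5 without parenchyma replicate 3, 3 of 9 among the VB types), and Benjamini-Hochberg adjustment over all tested transcripts with a threshold of 0.05. The SE is the absolute log2 fold change over the square root of F. limma 3.58.1 and DESeq2 1.42.0 served for alternatives, beside the likelihood ratio test, RLE factors, library totals, removal of the dominant transcript, other filters, single-read counts, fits of all libraries, a replicate block and each library left out. The pipeline was tested on simulated data.

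The genes named were every gene called with 6 libraries, the 5 higher and 5 lower described genes with the smallest p among calls without overlap when parenchyma replicate 3 was left out, the genes the study names, and in each list up to 3 called members per direction. The members and lists were chosen with earlier results of these data known. Descriptions come from the study's annotation tables. Of these, 1 was left out because its descriptions were out of step with its identifiers. The annotation table that compares the VB types with parenchyma was held only in part, and comparison results in the study tables were not used. None of the identifiers matched RefSeq, and sequences and coordinates are not given here. The replicates are called biological by the study, while the deposited record mentions 1, so p-values measure the spread between these libraries.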

Additional observations from a re-analysis of the deposited data

How the results depend on the processing

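Of 178 log2 fold changes of named transcripts (each fit counted), 14 changed sign in some alternative, none of a called transcript, and the number of calls depended on the setting. With all 6 libraries (20 calls), the likelihood ratio test gave 556, DESeq2 750, limma-voom with sample quality weights 145, library totals 37, removal of the dominant transcript before TMM 61, no filter on low counts 360, and 1 fit of all 12 libraries 310. At least 1 CPM in a majority of libraries gave 5 and single-read counts 7. Leaving out single libraries gave counts between 0 and 34. Without parenchyma replicate 3 (34 calls), the likelihood ratio test gave 793, DESeq2 1141, limma-voom 131, no filter 390 and a fit of the other 11 libraries 157, while RLE factors gave 18, removal of the dominant transcript 22, the majority filter 11 and single-read counts 4. A further library left out gave 0 to 36. RLE factors with 6 libraries gave 16, and library totals without parenchyma replicate 3 gave 38. For VB type 2 against VB types 1 and 3 (0 calls), the likelihood ratio test gave 6 and DESeq2 60, and RLE factors, library totals, the block and each library left out gave 0. The cause of these differences was not tested. Calls were split 25.0% higher in the fit of 6, against 73.0% with library totals, 8.97% with limma-voom and 50.0% with the block. Without parenchyma replicate 3 they were split 29.4% higher, against 48.9% with DESeq2 and 5.34% with limma-voom. Of 42 list medians, 5 changed sign in some alternative, and these belong to the heat shock, receptor, phloem and ABC transporter lists. The phloem median lay between -0.17 and 3.96 with all 6 libraries.

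The fold changes that changed sign all belong to transcripts whose groups overlapped. With all 6 libraries, library totals gave 0.087 for Bradi1g02510.1 (cellulose synthase), 0.21 for Bradi1g10080.1 (EPFL2), 0.30 for Bradi1g46450.1 (BdERECTA), 0.73 for Bradi1g74380.1 (EPFL4) and 0.56 for Bradi2g54810.4 (a protein phosphatase). limma-voom gave 0.23 for EPFL2 and 0.47 for EPFL4, and the replicate block 0.10 for EPFL4. Single libraries left out gave -0.58 to 0.30 for Bradi1g02510.1, -2.99 to 0.67 for EPFL2, -0.63 to 0.23 for BdERECTA, -0.39 to 0.52 for EPFL4, -0.56 to 0.30 for Bradi2g54810.4 and -2.48 to 0.63 for Bradi3g59520.1 (PIN1b). In the fit of 5 libraries limma-voom gave -0.29 for Bradi2g54810.4 and single reads 0.11 for Bradi2g58540.1 (EPFL9). A further library left out gave -0.75 to 0.29 for Bradi1g02510.1, -0.36 to 4.48 for EPFL2, -0.63 to 0.22 for BdERECTA, -0.043 to 0.53 for Bradi1g49950.1 (BdERECTA-like 1), -0.41 to 1.12 for Bradi2g22340.1 (EPFL6), -2.32 to 0.81 for EPFL9 and -0.13 to 1.10 for Bradi5g24080.1 (WOX4).

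Same-numbered VB type 2 and parenchyma libraries deviated from their group means with correlations of -0.08 to 0.03 across genes. Whether they share plants or a day was not tested, and these correlations cannot decide it. Between VB types 1 and 2 these correlations were 0.52, -0.0024 and 0.34 for replicates 1, 2 and 3, and between VB types 2 and 3 they were 0.29, 0.01 and 0.26, so that not every pair exceeded 0.1. The block gave 0 calls in the contrast of VB types. With the replicate number as a block, 6 transcripts were called with all 6 libraries, 4 of them among the 20. Parenchyma replicate 3 limits detection to 1.37 CPM.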

Other observations

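No pair was counted in any parenchyma library for 97 transcripts that had over 3 pairs in every VB type 2 library. In the other direction, 13 transcripts had no pair in VB type 2 and over 3 pairs in every parenchyma library. When parenchyma replicate 3 was left out, these numbers were 118 and 162. At most 3 pairs beside at least 20 CPM in both other libraries of its group were found for 79 transcripts in parenchyma replicate 3, 1 in parenchyma replicate 1 and 0 in parenchyma replicate 2. Of the 22 such transcripts in VB type 2 replicate 1, 5 had a description, among them a transcript with myb domain protein 59 as best hit (Bradi4g04050.1) and an acyl-transferase family transcript (Bradi2g04980.1).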
